A study of Homo sapiens with 6 samples.

Results

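YAP1, WWTR1, TEAD1 and 7 genes that the Hippo pathway is known to act on through them (CCN1, CCN2, ANKRD1, AMOTL1, AMOTL2, AJUBA and LATS2) were followed in MHCC-97H, a human cell line established from hepatocellular carcinoma. The genes were taken by symbol, and all 10 were found among the 20388 gene symbols of the table. One group held 3 libraries of cells kept for 24 h with GK921, which blocks transglutaminase 2 (TGM2), at 2 µM. The other held 3 libraries of cells given the solvent DMSO for the same time. All 6 libraries carry the genotype label WT. The line is a single established line, and separate cultures are not stated for the 3 libraries of a group. The p-values then cover only the spread between libraries, which may be technical. The unit is FPKM (fragments divided by transcript length and by the library's total), and every mean is given with its SD over n = 3 libraries per group.

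The Hippo pathway is a kinase cascade in which the MST kinases activate the LATS kinases. LATS kinases phosphorylate the coactivators YAP (gene YAP1) and TAZ (gene WWTR1), which then stay in the cytoplasm or are degraded. Unphosphorylated YAP and TAZ enter the nucleus and bind TEAD factors, and the pair drives genes such as CCN1, CCN2 and ANKRD1. Several targets, LATS2 and AMOTL2 among them, encode inhibitors of YAP and so act as feedback. In the liver the pathway limits organ size and tumour growth. The activity of YAP and TAZ is set largely by phosphorylation and location, which an mRNA level does not measure.

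Each library had between 13992 and 14433 genes above 0. No source used here gives read totals, and absolute depth is unknown. From the steps between low FPKM values, depth relative to the deepest library was 0.768, 0.772 and 0.864 after GK921, against 1, 0.943 and 0.871 in DMSO. Of the epithelial and liver markers, KRT8, KRT18 and KRT19 were abundant (159 to 1638 FPKM in any library) and HNF4A was at 6.94 to 10.4 FPKM, while ALB, AFP, EPCAM, TTR and APOA1 stayed below 1 FPKM and GPC3 was listed at 0. A list of 8 fibroblast and stellate markers summed to 22.6 to 28.8 FPKM after GK921 and 48.5 to 52.6 FPKM in DMSO, nearly all of it LUM and DCN, with DES listed at 0 and COL1A1 at no more than 0.02 FPKM. A list of 8 endothelial and blood cell markers summed to 102.5 to 116 FPKM after GK921 and 109 to 117 FPKM in DMSO, most of it CD68. The part of these markers in the results was not tested.

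The mRNAs of both coactivators and of TEAD1 were lower after GK921, and 6 of the 7 target and feedback genes were higher. WWTR1 was 2.50-fold and YAP1 1.57-fold lower. CCN1 rose 3.86-fold, AJUBA 3.27-fold, and ANKRD1, LATS2 and AMOTL2 each about 2.9-fold (2.92, 2.89 and 2.88), while CCN2 rose 1.60-fold. Values were tested with limma on log2(FPKM + 1) where a gene averaged at least 1 FPKM, and genes with a Benjamini-Hochberg adjusted p under 0.05 over all tested genes are called. Of the 9 genes that passed the expression limit, 6 were called higher and 3 lower, and AMOTL1 was too low to test. Changes were common in this comparison. Of 11573 tested genes, 46.8% were called higher and 29.2% lower (75.9% in either direction), so a call by itself says little about these genes. The groups did not overlap for any of the 9 genes, 6 of them higher after GK921 and 3 lower. Of all tested genes 78.0% did not overlap, 48.0% higher and 30.0% lower. A log2 change over 1 with a call was found for 5 of the 9 genes and for 9.87% of all tested genes. A change under -1 with a call was found for 1 of the 9, WWTR1, and for 6.24%. The median tested gene had a log2 change of 0.16, and changes are given as deposited, without subtracting it. A lower level in a bulk library can come from less RNA per cell or from fewer cells with that RNA, which cannot be told apart here.

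**Figure D1:**
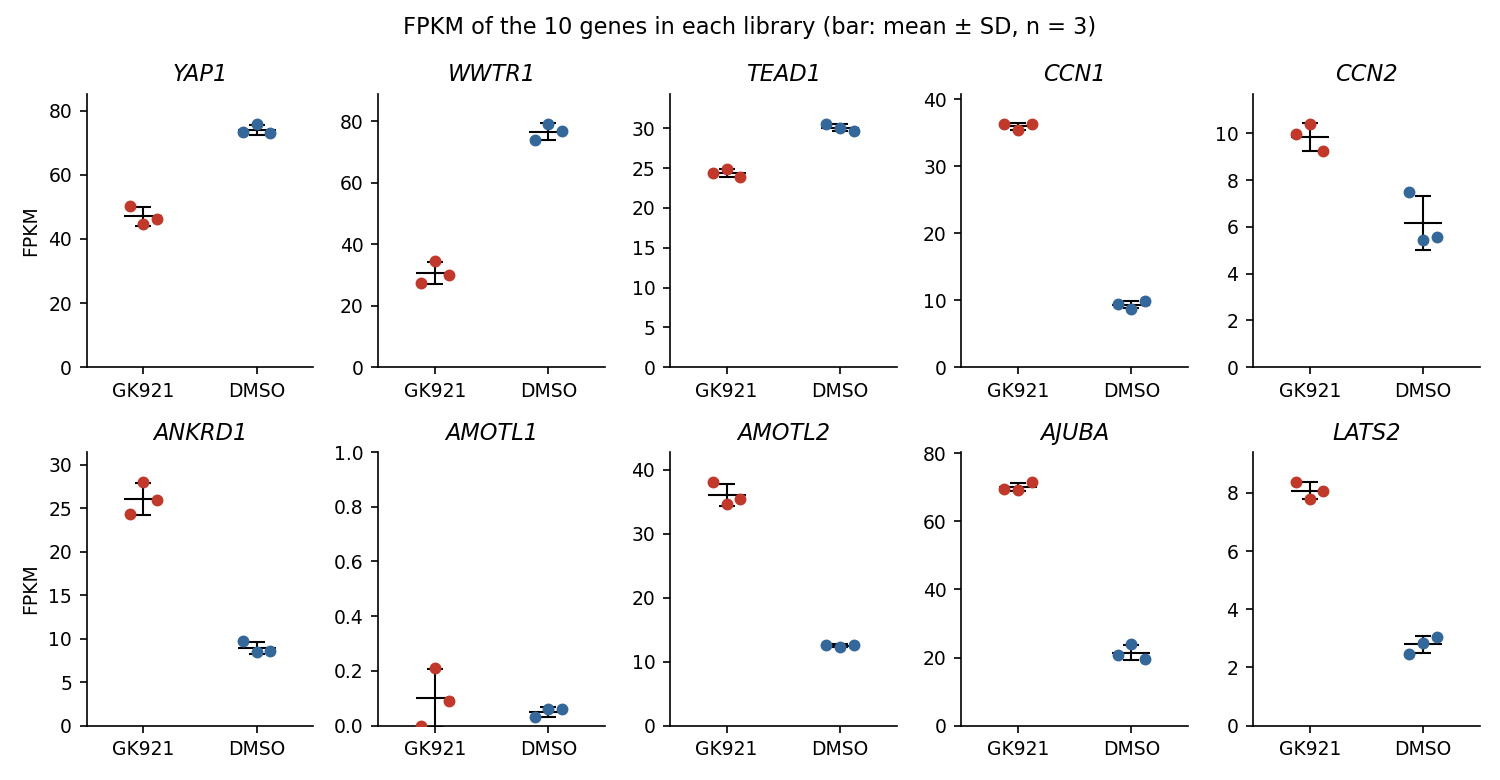
FPKM of each of the 10 genes in each library (points), with GK921 left of DMSO; the black marks are the mean and SD of 3 libraries and each panel has its own vertical axis from 0. YAP1, WWTR1 and TEAD1 sit lower in all 3 GK921 libraries, the 6 tested targets sit higher, and AMOTL1 stays below 1 FPKM.

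YAP1 (chromosome 11, 102110461 to 102233423 in GRCh38, plus strand) encodes the coactivator YAP. It was at 50.4, 44.7 and 46.2 FPKM in the GK921 libraries, against 73.3, 75.9 and 73.0 FPKM in the DMSO libraries. All 3 GK921 values lay below all 3 DMSO values, at means of 47.1 ± 2.96 and 74.1 ± 1.59 FPKM. The log2 change was -0.64 ± 0.051 (SE, limma adjusted p = 3.84e-06), and 12.3% of tested genes had a lower change. WWTR1 (chromosome 3, 149517235 to 149736714, minus strand) encodes TAZ, the paralog of YAP. It was at 27.4, 34.4 and 30.1 FPKM after GK921, against 73.7, 79.1 and 76.9 FPKM in DMSO. Again no GK921 library reached a DMSO library, with more spread among the GK921 libraries (coefficient of variation 11.5%, against 3.54% in DMSO). The means were 30.6 ± 3.52 and 76.6 ± 2.71 FPKM, a log2 change of -1.30 ± 0.076 (limma adjusted p = 5.04e-07). Only 3.93% of tested genes had a lower change.

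WWTR1 had the larger fall of the 2 paralogs. The ratio of YAP1 to WWTR1 in FPKM was 1.84, 1.30 and 1.54 in the GK921 libraries and 0.995, 0.960 and 0.949 in the DMSO libraries. These ratios did not overlap between the groups, and an exact permutation test of 3 against 3 libraries cannot give a two-sided p below 0.1. The sum of the 2 coactivators was 76.3 to 79.1 FPKM after GK921 and 147 to 155 FPKM in DMSO, a mean 1.94-fold lower. Exons of YAP1 overlap an annotated antisense gene and those of WWTR1 overlap WWTR1-AS1. No source used here says whether the counting used strand, so reads of these partners cannot be separated.

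**Figure D2:**
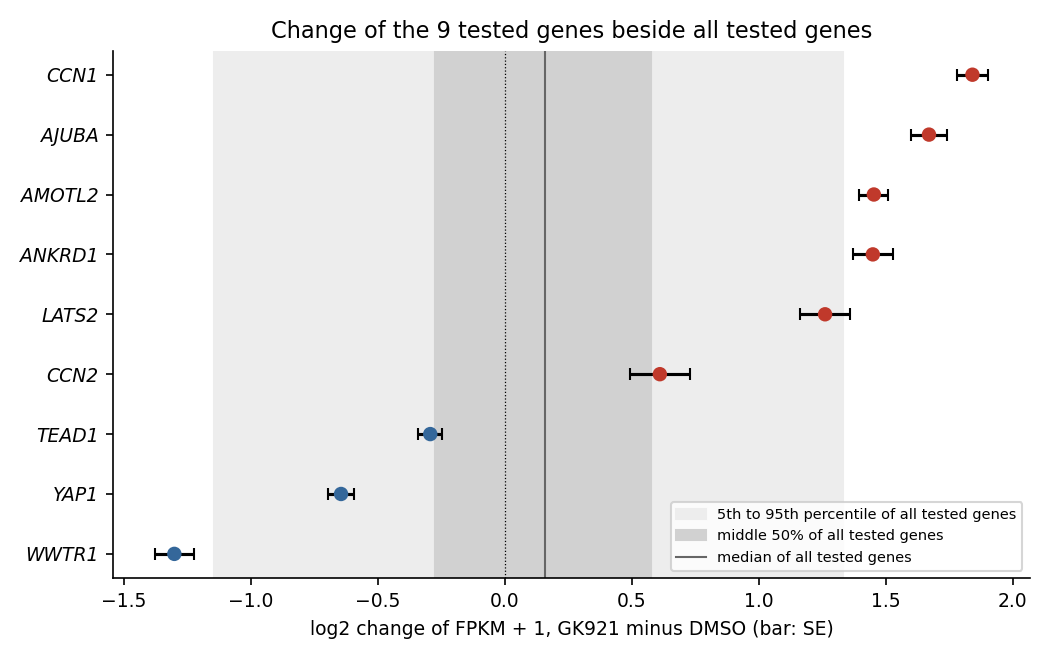
Log2 change (GK921 minus DMSO, on log2(FPKM + 1)) of the 9 tested genes, with SE, over the range of all 11573 tested genes (light band: 5th to 95th percentile; dark band: middle 50%; line: median). CCN1, at 1.84, and WWTR1, at -1.30, lie farthest from the median on either side.

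TEAD1 (chromosome 11, 12674591 to 12944483, plus strand) encodes a DNA-binding partner of YAP and TAZ. It was at 24.4, 24.9 and 23.8 FPKM after GK921, against 30.6, 30.0 and 29.6 FPKM in DMSO. The groups did not overlap and their spread was small, at means of 24.4 ± 0.515 and 30.1 ± 0.462 FPKM. The log2 change was -0.29 ± 0.048 (limma adjusted p = 0.000452), so TEAD1 was 1.23-fold lower. Against a 1.2-fold change (treat in limma), 8 of the 9 genes and 49.5% of all tested genes were called, and TEAD1 was the gene that was not (adjusted p = 0.44). For TEAD1, 24.1% of tested genes had a lower change.

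The other TEAD genes, which encode factors with the same DNA-binding domain, moved both ways. TEAD2 was at 7.35, 8.81 and 9.72 FPKM after GK921, against 15.1, 16.5 and 16.2 FPKM in DMSO (log2 change -0.82 ± 0.098, limma adjusted p = 5.69e-05). TEAD3 was at 13.8, 14.6 and 13.6 FPKM after GK921, against 7.41, 5.83 and 5.90 FPKM in DMSO (1.03 ± 0.097, limma adjusted p = 1.16e-05). TEAD2 was thus lower and TEAD3 higher in every GK921 library than in any DMSO library. TEAD4 averaged 19.9 ± 1.69 FPKM after GK921 and 16.6 ± 1.62 FPKM in DMSO (0.25 ± 0.087, limma adjusted p = 0.0265). That call was lost with median-ratio scaling (limma adjusted p = 0.41), with quantile normalization (0.32), against a 1.2-fold change (0.80), and without the first GK921 library (0.0935), the first DMSO library (0.0943) or the third DMSO library (0.0651). The sum over the 4 TEAD genes differed little (1.03-fold lower), at 65.7 to 67.6 FPKM after GK921 and 68.0 to 70.7 FPKM in DMSO. Within that sum TEAD1 made up 36.4% ± 0.288 after GK921 and 43.6% ± 1.16 in DMSO, and TEAD2 12.9% ± 1.94 and 23.1% ± 0.816. TEAD3 made up 20.9% ± 0.607 after GK921 and 9.26% ± 1.40 in DMSO, and TEAD4 29.7% ± 2.29 and 24.0% ± 1.88. TEAD1 was the most abundant TEAD mRNA in all 6 libraries.

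**Figure D3:**
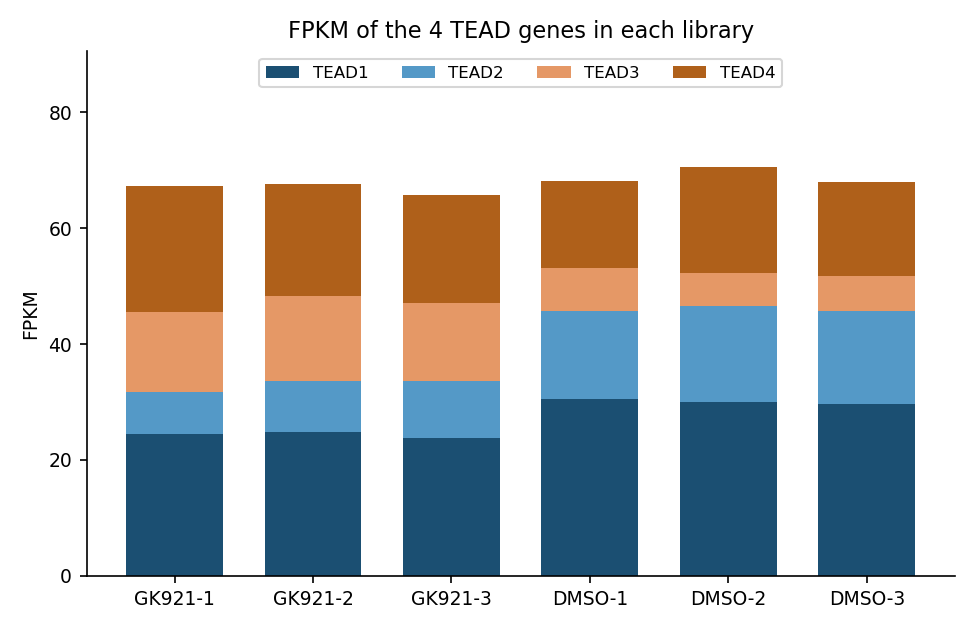
Stacked FPKM of TEAD1, TEAD2, TEAD3 and TEAD4 in each library, with the 3 GK921 libraries left of the 3 DMSO libraries. The total height is similar in all 6 libraries. After GK921 the TEAD1 and TEAD2 parts are smaller, the TEAD3 part larger and the TEAD4 part slightly larger.

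TEAD factors bind the letters GGAATG. The start windows of the target genes are shown because the tested ones rose while the mRNAs of YAP1, WWTR1 and TEAD1 fell. TEAD2 also fell, TEAD3 rose, and the call of TEAD4 as higher depended on the processing. RefSeq windows (GRCh38.p14) of 250 bases before to 50 bases after an annotated transcription start were present for 8 of the 10 genes, in 11 windows; CCN1 and TEAD1 were not matched. GGAATG or its reverse complement CATTCC occurred in 6 of the 11 windows, those of CCN2, ANKRD1, LATS2 and YAP1 and 1 of the 2 windows each of AMOTL2 and AJUBA. Of all 35116 windows, 14% held it. The window of CCN2 held it 3 times, 169, 104 and 95 bases before the start, and 0.128% of all windows held 3 or more. ANKRD1 held it 220 and 128 bases before the start. LATS2 held it 10 bases into the transcript, AMOTL2 69 bases and AJUBA 59 bases before the start, and YAP1 162 bases before. The windows of WWTR1 and AMOTL1 did not hold these letters. Most of the 10 genes were taken as known targets of this pathway. Their share of windows with the letters is therefore not independent support. CCN2 is set apart as the window with the most matches. On the gene's own strand, 5′ to 3′, with the GGAATG or CATTCC letters in capitals, 4 of the windows read as follows.
CCN2 (chr6:131951323-131951622, minus strand): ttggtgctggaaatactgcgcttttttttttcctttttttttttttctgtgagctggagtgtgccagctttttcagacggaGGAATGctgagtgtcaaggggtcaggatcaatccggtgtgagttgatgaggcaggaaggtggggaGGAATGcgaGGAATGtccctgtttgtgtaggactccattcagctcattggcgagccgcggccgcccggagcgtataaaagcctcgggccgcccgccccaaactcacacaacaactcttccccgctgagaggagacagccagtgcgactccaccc
ANKRD1 (chr10:90921038-90921337, minus strand): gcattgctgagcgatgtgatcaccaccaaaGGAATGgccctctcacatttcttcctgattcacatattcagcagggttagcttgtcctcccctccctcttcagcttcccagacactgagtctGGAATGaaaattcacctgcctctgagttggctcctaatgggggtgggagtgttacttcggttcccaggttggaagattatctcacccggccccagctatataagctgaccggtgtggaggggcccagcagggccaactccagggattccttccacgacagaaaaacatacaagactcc
AMOTL2 (chr3:134374398-134374697, minus strand): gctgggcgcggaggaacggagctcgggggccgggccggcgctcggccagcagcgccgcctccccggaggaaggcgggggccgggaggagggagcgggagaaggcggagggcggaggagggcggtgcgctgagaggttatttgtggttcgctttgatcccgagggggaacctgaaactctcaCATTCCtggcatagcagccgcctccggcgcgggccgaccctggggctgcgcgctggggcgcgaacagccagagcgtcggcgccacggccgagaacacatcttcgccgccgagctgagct
LATS2 (chr13:21061537-21061836, minus strand): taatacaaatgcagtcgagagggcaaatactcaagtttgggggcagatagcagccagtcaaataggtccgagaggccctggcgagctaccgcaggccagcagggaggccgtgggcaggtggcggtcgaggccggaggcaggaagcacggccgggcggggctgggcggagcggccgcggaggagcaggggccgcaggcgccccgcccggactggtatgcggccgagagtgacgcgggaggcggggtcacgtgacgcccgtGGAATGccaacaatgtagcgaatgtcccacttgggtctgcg
The letters lie 3 bases apart in the last pair of CCN2 matches and far from each other in ANKRD1. In AMOTL2 they stand on the opposite strand.

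Letters of 3 stress-linked motifs were searched in the same windows, on both strands. TGANTCA, with any base at N, is a loose form of the site bound by AP-1 factors, which has C or G there. The loose form occurred only in the window of ANKRD1, 195 bases before the start, and in 7.71% of all windows. In ANKRD1 the letters were TGATTCA, with T at N. TGATGNAA, part of the element bound by ATF4 with C/EBP factors, occurred on the opposite strand in 1 window of AJUBA, 34 bases before the start, and in 3.62% of all windows. The cyclic AMP element TGACGTCA occurred in none of the 11 windows and in 1.85% of all windows. None of the 11 matches shared a base with another. A match is a description of the letters, and a window without them says nothing about binding elsewhere.

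**Figure D4:**
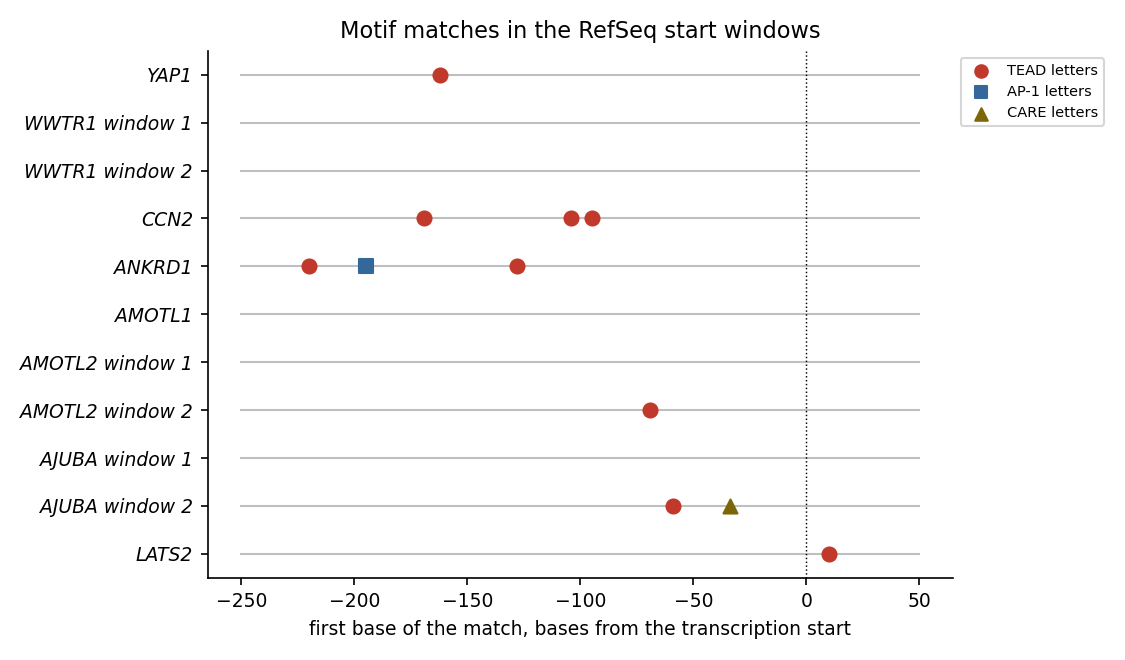
Matches of the TEAD letters (circles), the loose AP-1 letters TGANTCA (square) and ATF4-C/EBP letters (CARE, triangle) along the 11 RefSeq start windows. Each is placed by the distance of its first matched base from the transcription start (dotted line). CCN2 has 3 TEAD matches and ANKRD1 has 2.

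CCN1 and CCN2 (older names CYR61 and CTGF) encode secreted matricellular proteins and are the usual readouts of YAP and TEAD. CCN1 (chromosome 1, 85580761 to 85583962, plus strand) was at 36.2, 35.4 and 36.3 FPKM after GK921, against 9.43, 8.72 and 9.84 FPKM in DMSO. Its GK921 values lay within 1 FPKM of each other and far above all DMSO values, at means of 36.0 ± 0.527 and 9.33 ± 0.567 FPKM. The log2 change of 1.84 ± 0.062 (limma adjusted p = 1.52e-08) was the largest of the 9 genes, and 1.88% of tested genes had a higher one. CCN2 (chromosome 6, 131948176 to 131951373, minus strand), whose window holds the 3 GGAATG matches printed above, changed far less. It was at 9.96, 10.4 and 9.23 FPKM after GK921, against 7.49, 5.46 and 5.55 FPKM in DMSO. The groups did not overlap, although the first DMSO library came near, at means of 9.87 ± 0.596 and 6.17 ± 1.15 FPKM. The log2 change was 0.61 ± 0.12 (limma adjusted p = 0.0012), and 23.3% of tested genes had a higher change. Exons of CCN2 overlap an annotated antisense gene.

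The ratio of CCN1 to CCN2 in FPKM was 3.64, 3.40 and 3.93 after GK921 and 1.26, 1.60 and 1.77 in DMSO, so every GK921 library lay above every DMSO library. The other CCN genes were low. CCN4 was at 1.45, 0.86 and 1.81 FPKM after GK921 and 1.19, 1.81 and 1.87 FPKM in DMSO, and was not called (limma adjusted p = 0.48). CCN3, CCN5 and CCN6 were below the expression limit, at no more than 0.61 FPKM in any library.

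ANKRD1 (chromosome 10, 90912096 to 90921276, minus strand) encodes the cardiac ankyrin repeat protein, which is found in the nucleus and in muscle sarcomeres. It was at 24.4, 28.0 and 25.9 FPKM after GK921, against 9.73, 8.42 and 8.61 FPKM in DMSO. The lowest GK921 library was above the highest DMSO library by more than the spread within either group, at means of 26.1 ± 1.81 and 8.92 ± 0.708 FPKM. The log2 change was 1.45 ± 0.078 (limma adjusted p = 3.07e-07), with 3.94% of tested genes above it.

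The angiomotin-like gene AMOTL2, AJUBA and LATS2 all rose. AMOTL2 (chromosome 3, 134355874 to 134375479, minus strand) encodes an angiomotin-like protein of cell junctions that holds YAP out of the nucleus. It was at 38.0, 34.6 and 35.5 FPKM after GK921, against 12.7, 12.3 and 12.6 FPKM in DMSO. The groups were far apart, at means of 36.0 ± 1.76 and 12.5 ± 0.220 FPKM (log2 change 1.45 ± 0.057, limma adjusted p = 4e-08). AMOTL1 (chromosome 11, 94706431 to 94876753, plus strand), its paralog, was listed at 0, 0.21 and 0.09 FPKM after GK921 and at 0.03, 0.06 and 0.06 FPKM in DMSO. The groups overlapped, and without the expression limit AMOTL1 was not called (log2 change 0.063 ± 0.076, limma adjusted p = 0.52). AMOT, which encodes the founding angiomotin, was listed at 0 in all 6 libraries. AMOTL2 was therefore the only angiomotin mRNA of the 3 above 1 FPKM in these 6 libraries.

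AJUBA (chromosome 14, 22971174 to 22982642, minus strand) encodes a LIM-domain protein that binds and restrains LATS kinases. It was at 69.4, 69.2 and 71.4 FPKM after GK921, against 20.8, 23.8 and 19.5 FPKM in DMSO. The groups did not overlap, at means of 70.0 ± 1.23 FPKM after GK921 and 21.4 ± 2.23 FPKM in DMSO, where the coefficient of variation was 10.4%. The log2 change was 1.67 ± 0.070 (limma adjusted p = 5.66e-08), with 2.64% of tested genes above it. LIMD1, a LIM protein of the same family and on the list of upstream regulators, had a log2 change of 0.45, and WTIP was too low to test. LATS2 (chromosome 13, 20973032 to 21061547, minus strand) encodes one of the kinases that inactivate YAP and TAZ. It was at 8.36, 7.79 and 8.08 FPKM after GK921, against 2.48, 2.85 and 3.05 FPKM in DMSO. The GK921 libraries lay above all DMSO libraries, at means of 8.08 ± 0.285 and 2.79 ± 0.289 FPKM. The log2 change was 1.26 ± 0.097 (limma adjusted p = 3.1e-06) and was 0.75 when 5 FPKM rather than 1 was added before taking logs. LATS1, the other LATS kinase gene, was at 14.1 ± 0.463 FPKM after GK921 and 10.2 ± 0.453 FPKM in DMSO (0.43 ± 0.068, limma adjusted p = 0.000335). LATS2 thus made up 36.5% ± 1.58 of the summed LATS1 and LATS2 FPKM after GK921 and 21.6% ± 2.04 in DMSO.

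The order of the 10 genes by FPKM differed between the groups. After GK921, AJUBA led at 70.0 FPKM, followed by YAP1 at 47.1, AMOTL2 and CCN1 at 36.0 each, WWTR1 at 30.6, ANKRD1 at 26.1, TEAD1 at 24.4, CCN2 at 9.87, LATS2 at 8.08 and AMOTL1 at 0.1. In this order AMOTL2 and CCN1, WWTR1 and ANKRD1, and ANKRD1 and TEAD1 overlapped in their libraries. In DMSO, WWTR1 and YAP1 led with overlapping values (76.6 and 74.1 FPKM), followed by TEAD1, AJUBA, AMOTL2, the overlapping CCN1 and ANKRD1, then CCN2, LATS2 and AMOTL1. The other neighbours in either order did not overlap.

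The counts of called genes in the lists that follow stand beside 46.8% higher and 29.2% lower, and a median log2 change of 0.16, over all tested genes. Of 6 core kinase genes, all tested, 4 were called higher and 1 lower, with a median log2 change of 0.39. Without the second GK921 library 2 were lower, MOB1B being added. SAV1, the scaffold that joins MST to LATS, was at 19.4 ± 0.412 FPKM after GK921 and 9.08 ± 0.949 FPKM in DMSO (1.02 ± 0.080, limma adjusted p = 3.61e-06). The MST2 kinase gene STK3 was at 39.2 ± 1.10 FPKM after GK921 and 28.4 ± 0.301 FPKM in DMSO (0.45 ± 0.046, limma adjusted p = 2.01e-05). MOB1A, a coactivator of LATS kinases, was 1.15-fold lower (-0.20 ± 0.041, limma adjusted p = 0.00186), a fall not called against a 1.2-fold change.

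Of 20 listed upstream regulators 16 were tested, and 9 were called higher and 6 lower (median 0.19). This median is near the 0.16 of all tested genes, of which 46.8% were higher and 29.2% lower. The atypical cadherin gene FAT1 was 3.28-fold lower, at 30.0 ± 1.60 FPKM after GK921 and 98.7 ± 2.09 FPKM in DMSO (-1.68 ± 0.048, limma adjusted p = 6.14e-09). WWC1, which encodes the LATS activator KIBRA, was 2.39-fold lower. Its paralog WWC2 was 1.52-fold higher (limma adjusted p = 1.29e-05), and WWC3 was not called (limma adjusted p = 0.15). The polarity gene CRB3 was at 8.10, 2.44 and 6.11 FPKM after GK921 and at 12.8, 13.4 and 11.7 FPKM in DMSO, so that its log2 change of -1.17 shrank to -0.76 without the second GK921 library. The phosphatase gene PTPN21 was 3.20-fold higher. Of 12 genes of STRIPAK, the phosphatase complex that opposes the MST kinases, 11 were tested, with 5 higher and 3 lower (median 0.14), which is near the shares and the median of all tested genes. Its scaffold gene PPP2R1A was 1.76-fold and STRIP2 1.76-fold lower, while CTTNBP2NL and SIKE1 were 1.80-fold and 1.59-fold higher. With median-ratio scaling 3 STRIPAK genes were higher and 4 lower, and the list median was -0.02. Of the 7 other TEAD and VGLL genes 5 were tested, and 3 were higher and 1 lower (median 0.25), or 2 lower without the second DMSO library, where VGLL3 was added. VGLL4, whose protein competes with YAP for TEAD, was 1.46-fold higher (0.53 ± 0.050, limma adjusted p = 1.21e-05).

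A wider list of 25 genes known as YAP and TAZ targets moved both ways. Of 21 tested, 9 were called higher and 9 lower, and 3 were not called. Their median log2 change was -0.04, beside 0.16 over all tested genes. These counts stand beside 46.8% higher and 29.2% lower over all tested genes. GADD45A, a growth arrest gene of the stress and p53 responses, was 5.40-fold higher, at 381 ± 11.8 FPKM after GK921 and 70.6 ± 3.05 FPKM in DMSO. AREG, which encodes the EGF receptor ligand amphiregulin, was 3.00-fold higher. BIRC5, which encodes survivin of the mitotic chromosomal passenger complex, was 5.06-fold lower, at 28.6 ± 0.392 FPKM after GK921 and 145 ± 6.0 FPKM in DMSO. GGH, which encodes a folate hydrolase, was 8.65-fold lower, at 11.1 ± 1.28 FPKM after GK921 and 95.6 ± 2.88 FPKM in DMSO.

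CCN1, CCN2 and ANKRD1 are also known targets of SRF with its actin-regulated cofactors, so a list of 17 other SRF-linked genes was set beside them. Of 14 tested, 5 were higher and 8 lower (median -0.30), beside 46.8% higher and 29.2% lower (median 0.16) over all tested genes. The list also holds the genes of SRF itself and of its cofactors, MRTFA and MRTFB. SRF (log2 change 0.31, limma adjusted p = 0.00403) and MRTFA (0.54, limma adjusted p = 0.00228) were among the 5 higher genes. MRTFB was not called. The tropomyosin gene TPM2 was 3.21-fold and the filamin gene FLNA 1.80-fold lower, and the smooth muscle marker TAGLN fell to 2.13 ± 1.30 FPKM after GK921, against 4.74 ± 0.860 FPKM in DMSO (limma adjusted p = 0.0112). FHL1, which encodes a LIM-domain protein, was 2.15-fold higher.

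**Figure D5:**
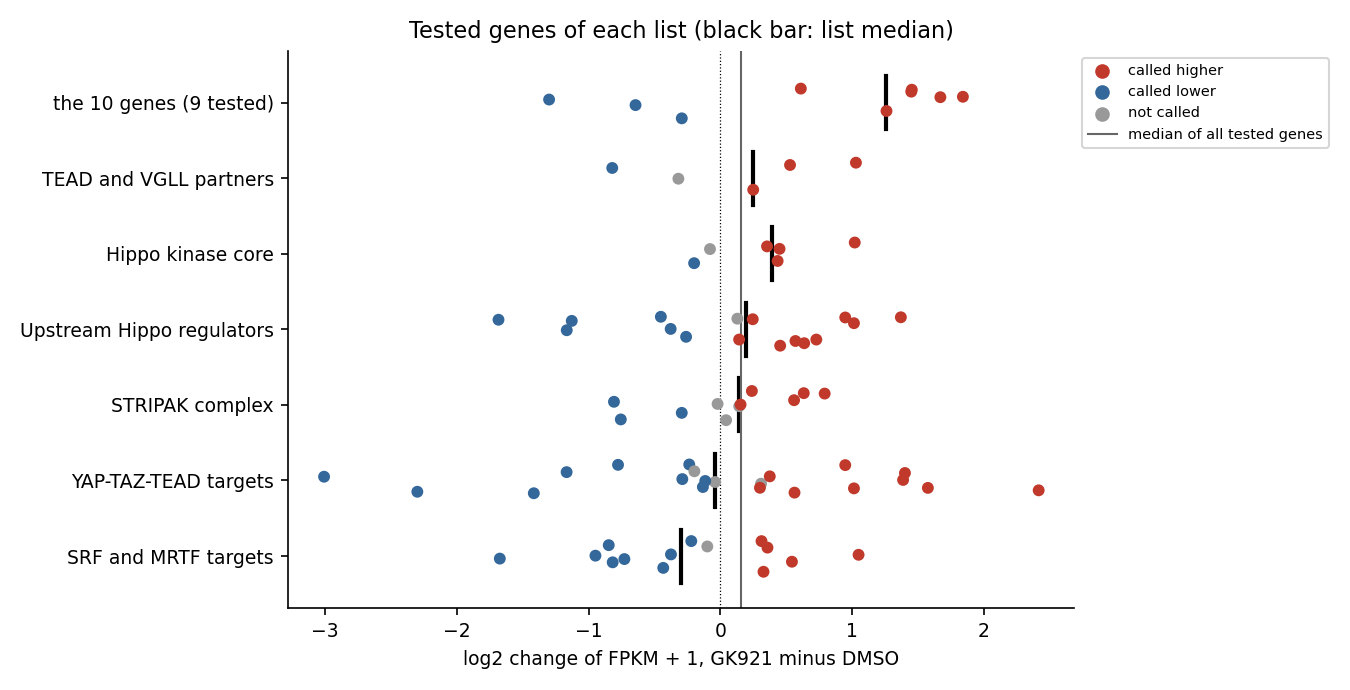
Log2 change (GK921 minus DMSO) of each tested gene, by list, coloured by call, with the list median as a black bar and the median of all tested genes as a grey line. The 9 tested genes split into 3 lower and 6 higher, while the wider target list spreads evenly over both directions around -0.04.

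The tested genes with profiles most like those of YAP1 and CCN2 were found by the root mean square distance between log2(FPKM + 1) values over the 6 libraries, each gene centred on its own mean. Nearest to YAP1 were APEX2 (distance 0.020), WDR3 (0.025) and GPAM (0.031), and 551 genes lay within 0.1. Nearest to CCN2 were PCGF1 (0.055), DTWD2 (0.056) and SLC25A37 (0.072), and 67 genes lay within 0.1. With 2 groups these distances mostly reflect the size of the group difference.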

How the data were processed

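RNA sequencing of total RNA was done on 6 libraries of MHCC-97H. Per the submitters' processing notes, the tools were FastQC 0.11.5, HISAT2, edgeR and featureCounts on build hg38, with no roles given and no gene annotation named. The authors deposited FPKM per gene symbol with 2 decimals, and these were used unchanged. FPKM is relative within a library, so a change of total RNA per cell is not visible in it. Groups came from the sample titles.

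Tests used limma 3.58.1 (R 4.3.3). The scale was log2(FPKM + 1), which understates changes of low genes. Genes averaging at least 1 FPKM were tested, with an intensity trend in the variance. P-values were adjusted over 11573 genes by the method of Benjamini and Hochberg. Printed folds are ratios of mean FPKM. The procedure was tested on simulated data with 200 changed genes, far fewer than were called here. That test does not cover a setting with so many changes. Relative depth came from the commonest ratio of low values for each of 15 library pairs, which a joint fit met within 0.0067 log2 units. No 2 libraries of a group shared more than 0.389% of tested values exactly. Positions are from GENCODE 29 (GRCh38), where CCN1 and CCN2 have older symbols, and start windows from RefSeq (GRCh38.p14).

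The 10 genes, the lists and the tests were chosen with earlier results of these data known. Named genes are the 10, their paralogs, the 4 largest called changes of each list with both directions where present, and the 3 nearest profiles of YAP1 and CCN2. LIMD1 and WTIP (relatives of AJUBA) and markers outside this rule were named after their values were seen. So were WWC2 and WWC3 (relatives of WWC1), SRF, MRTFA and MRTFB. Alternatives were the pseudocount, the expression limit, median-ratio and quantile scaling, the replicate block, no trend, treat and each library left out.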

Additional observations from a re-analysis of the deposited data

How the results depend on the processing

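Each of the 9 tested genes kept its direction and its call under all 15 alternatives, except TEAD1 against a 1.2-fold change. Over those alternatives the log2 change of WWTR1 ranged from -1.47 to -1.20, that of YAP1 from -0.82 to -0.60, that of CCN1 from 1.52 to 1.94 and that of CCN2 from 0.41 to 0.74. The share of all calls that were rises was 61.6% as deposited (5411 higher and 3378 lower), 49.1% with median-ratio scaling (4221 and 4374) and 51.9% with quantile normalization (4387 and 4071). Testing against a 1.2-fold change called 3595 genes higher and 2135 lower, with 0 core kinase genes lower, 3 STRIPAK genes higher, 5 wider targets lower and 2 SRF-linked genes higher, since that test asks for a larger change. With median-ratio scaling or quantile normalization 3 STRIPAK genes were higher, and without the expression limit 1 CCN gene, CCN3, was lower. Leaving out single libraries gave 1 to 2 lower genes among both the TEAD and VGLL genes and the core kinase genes. With median-ratio scaling KRT18 (-0.0888), TAOK1 (-0.028) and FGFR1OP2 (-0.020) had negative changes, called for KRT18 only. The cause was not tested, and that scaling put the median change of all tested genes at -0.0013. The replicate block gave 5351 higher and 3355 lower calls, with 6 and 3 among the 9 genes. Same-numbered libraries did not deviate together in every pair (r = 0.031, 0.047 and -0.0021 across genes). Pairs with different numbers ranged from -0.057 to 0.029. Values this small cannot tell whether the numbers mark paired libraries. Unknown read totals limit statements on genes near 0, such as AMOTL1.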

Other observations

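LUM and DCN, which encode small proteoglycans usually made by fibroblasts, were expressed in this tumour line and were lower after GK921. LUM was at 21.5, 25.7 and 27.2 FPKM after GK921, against 41.1, 43.5 and 42.1 FPKM in DMSO (log2 change -0.75 ± 0.081, limma adjusted p = 2.86e-05). DCN was at 0.75, 0.97 and 1.14 FPKM after GK921, against 7.23, 8.77 and 9.02 FPKM in DMSO (-2.26 ± 0.13, limma adjusted p = 4.16e-07). COL1A1, COL1A2 and COL3A1 stayed at or below 0.13 FPKM in all 6 libraries. PDGFRB, from the same marker list, went the other way but was too low to test. It was at 0.32, 0.35 and 0.31 FPKM after GK921, against 0.02, 0.03 and 0 FPKM in DMSO.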
